A study of Mus musculus with 4 samples.

Results

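The genes described here are the surface and secreted markers of resting microglia: P2ry12, P2ry13, Gpr34, Csf1r, Tmem119, Siglech, Fcrls and Olfml3. They were chosen by name, and 8 of the 9 symbols named were found among the 32285 genes of the deposited table. The ninth, Selplg2, was not found under that symbol. Selplg, a different symbol that encodes PSGL-1, the leukocyte ligand of the selectins, is reported beside them and was not counted among the 8.

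The measurements came from single-cell RNA sequencing of mouse cortex, with 1 library per group and tissue of 4 to 5 animals pooled in each. All animals were male C57BL/6N mice aged 10 months, all were treated with an antibody for 10 weeks, and the tissue was labelled as sensory cortex and infarct core, dissected with the cortex around the lesion. One group had sham surgery and isotype antibody. The other 3 had dMCAO stroke surgery followed by isotype, anti-VCAM1 or anti-VLA4 antibody. VCAM1 is an adhesion molecule of activated endothelium and VLA4 is the leukocyte integrin that binds it. Sham animals received only the isotype antibody, and the cells were stained for CD31 and CD45 after dissociation. With 1 library per group no test between groups exists, so every interval below is a 95% interval for counting error only and holds no variation between animals.

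Microglia are the resident macrophages of the brain parenchyma. Border macrophages live in the meninges and around vessels and share much of the macrophage programme with them. The genes here are known for their high expression in resting microglia and for their loss when microglia enter activated states, such as the disease-associated state marked by Spp1, Cst7, Lpl and Itgax. Cells were therefore gated without these genes: microglia had at least 10 UMIs (unique transcript molecules) of C1qa, C1qb and C1qc together and fewer than 5 of Mrc1, Pf4, F13a1 and Ms4a7. Border macrophages had at least 10 C1q UMIs and 5 or more of the 4 border genes.

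Values for the libraries are given in 1 order throughout: sham, stroke isotype, VCAM1 antibody, VLA4 antibody. The gate held 639, 1287, 1542 and 2048 microglia among 1516, 2832, 4662 and 6209 cells kept, and 79, 130, 46 and 76 border macrophages. The deposited barcodes held 10008987 to 34721356 UMIs per library, and the median microglia held 8194, 6971, 6098.5 and 5877.5 UMIs. Sall1, a transcription factor of microglia outside the gate, stood at 262 to 289 CPM (UMIs of a gene per 1000000 UMIs of the class in a library) in microglia of the 4 libraries, against 12.2 to 78.1 CPM in border macrophages. The summed level of 12 genes known to be induced by dissociation differed between the microglia of the libraries, at 14679.7, 11819, 9526 and 8013 CPM, and its part in the results was not tested.

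The sham and stroke isotype libraries shared 59 cell barcodes, while the other pairs of libraries shared 1 to 8. Of the 59, 55 were deeper in the sham library, and the shallower copy held a median of 3.16% of the UMIs of the deeper one. In microglia, barcodes found in more than 1 library were 24 of 639 sham cells and held 9.02% of the UMIs of the class. They were 16 of 1287 stroke isotype cells and held 1.01%. In sham border macrophages they were 10 of 79 cells and held 38.3% of the UMIs of the class. Those 10 cells carried all 2685 UMIs of the neutrophil and monocyte genes S100a8 and S100a9 found in sham border macrophages. For stroke against sham in border macrophages, counts of genes are therefore given with and without barcodes found in more than 1 library. The log2 ratios of P2ry12, Tmem119, Gpr34, Olfml3, Fcrls, Siglech and Csf1r are given in both ways too.

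P2ry12 and P2ry13 encode ADP receptors and are neighbours on mouse chromosome 3 (GRCm38, the build listed as mm10 in the submitters' processing notes; GENCODE M21 annotation). P2ry12 lies at chr3:59216272-59262871 and P2ry13 at chr3:59207892-59210882, both on the minus strand, 5.39 kb apart. Both lie inside Med12l, which runs on the opposite strand. Fcrls (chr3:87250758-87263738) and Olfml3 (chr3:103722222-103738001) lie farther along the same chromosome, Tmem119 (chr5:113793729-113800516) lies 18.0 kb from Selplg, Siglech is at chr7:55768178-55778925, and Gpr34 (chrX:13632089-13640858) lies inside Cask, again on the opposite strand. The strand setting of the authors' counting is not given in the sources used here. Whether transcripts of Med12l or Cask in the same place were counted with these genes was not tested. Med12l itself was at 169 to 205 CPM and Cask at 259 to 288 CPM in microglia.

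The sequence before the start site is shown for P2ry13 and Olfml3, as examples with and without letters of the kind bound by PU.1, the macrophage lineage factor. RefSeq windows (GRCm38.p6) of 250 bases before the start were matched for 5 of the 8 genes and searched on both strands for GAGGAA, for GGAAGT and for their overlap GAGGAAGT. P2ry13 (chr3:59210883-59211132, minus strand) held GAGGAA, shown in capitals, from 48 to 43 bases before its start. Olfml3 (chr3:103738002-103738251, minus strand) held neither short motif.
P2ry13: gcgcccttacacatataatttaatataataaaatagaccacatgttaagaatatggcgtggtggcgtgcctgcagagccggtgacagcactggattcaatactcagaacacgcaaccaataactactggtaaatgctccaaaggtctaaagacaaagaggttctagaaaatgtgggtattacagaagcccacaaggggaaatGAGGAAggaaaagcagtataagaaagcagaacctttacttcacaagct
Olfml3: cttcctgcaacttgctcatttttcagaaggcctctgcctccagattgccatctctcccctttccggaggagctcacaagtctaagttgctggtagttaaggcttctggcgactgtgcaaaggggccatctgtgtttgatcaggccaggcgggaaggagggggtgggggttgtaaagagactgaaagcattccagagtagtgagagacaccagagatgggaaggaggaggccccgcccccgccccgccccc

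For the genes with other matches, the 30 bases around each match show where the letters fall, with the motif or its reverse complement in capitals. P2ry12 held GGAAGT from 51 to 46 bases before its RefSeq start, at a distance close to that of the P2ry13 match, and Siglech held its reverse complement farther out. Fcrls held both short motifs apart from each other. Distances are from RefSeq starts, which differ from the GENCODE spans for some genes. The GENCODE span of Fcrls reaches chr3:87263738, so both Fcrls sites lie inside it. That of P2ry12 ends at chr3:59262871, short of its RefSeq window (chr3:59262986-59263235). The bases after the RefSeq start of P2ry12 matched no GENCODE transcript of the gene.
P2ry12, chr3:59263019-59263048, minus strand: agctaacaagaaGGAAGTtccccagtgaca
Fcrls, chr3:87263651-87263680, minus strand: caagtctgtaaaGAGGAAggacgtttgctt
Fcrls, chr3:87263582-87263611, minus strand: gacaactttgccACTTCCtttttttcctat
Siglech, chr7:55768016-55768045, plus strand: tgtgcaacaagcACTTCCcagtctgagcca

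Among 32851 windows of the same length, 23.3% held GAGGAA, 19.7% held GGAAGT and 2.44% held GAGGAAGT. Of the 5 windows matched, 2 held GAGGAA, 3 held GGAAGT and 0 held GAGGAAGT. A match is a description of these letters only.

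All 8 genes were concentrated in the C1q-positive classes. In endothelial cells each stood at 0.262% to 1.13% of its microglial level within the same library, and in T cells at 0% to 2.41%. These are the levels against which low values in other classes can be read. Gpr34 differed between the 2 classes and stood in T cells at 1.64% to 2.41% of its microglial level and in endothelial cells at 0.282% to 0.731%, with intervals that did not overlap in any of the 4 libraries.

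Border macrophages lay between these levels and split the genes into groups by size. Csf1r, the receptor for the growth factors CSF1 and IL-34, stood in border macrophages at 50.1% to 68.0% of its microglial level. Fcrls, an Fc receptor-like scavenger protein, stood at 53.9% to 70.8%. P2ry13 was at 32.8% to 36.9%, P2ry12 at 16.1% to 35.5%, Gpr34 at 13.6% to 34.8%, Siglech at 19.2% to 32.7% and Olfml3 at 22.6% to 29.2%. Tmem119, a transmembrane protein often used to tell microglia from other macrophages, was at 9.77% to 25.4%. The ranges of Csf1r and Fcrls did not overlap those of the other 6 genes. The sham values include the 10 cells with shared barcodes, and without these the sham level was 14.4% for Siglech, 26.6% for P2ry13, 17.3% for P2ry12, 16.9% for Gpr34, 17.3% for Olfml3, 12.1% for Tmem119, 48.4% for Csf1r and 56.9% for Fcrls. Dendritic cells, with only 14 to 44 cells per library, held 0 UMIs of Tmem119. In the sham library, with 17 dendritic cells, Siglech reached 163 CPM, or 15.7% of its microglial level, the highest of the 4 dendritic values. In the anti-VLA4 library, with 15 dendritic cells, Fcrls reached 169 CPM, or 17.6%. Csf1r was at 2.41% to 7.17% of its microglial level in dendritic cells.

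With the libraries summed, the step between the classes was gradual when C1q-positive cells were ordered by their UMIs of the 4 border genes. P2ry12 was at 1801 CPM (95% interval 1787 to 1815, 5248 cells) where no border gene UMI was seen and at 1182 CPM (1130 to 1237, 209 cells) at 1 to 2 UMIs. Just inside the microglial gate, at 3 to 4 UMIs, it was at 609 CPM (545 to 678, 59 cells), and just outside, at 5 to 9 UMIs, at 461 CPM (408 to 518, 74 cells). Within libraries these ranges held 7 to 25 cells. P2ry12, Tmem119 and Gpr34 were lower at 5 to 9 UMIs than at 3 to 4 in only 2 of 4 libraries, and the other genes in 3 or 4. All 8 genes were lower at 3 to 4 UMIs than at 0 in 4 of 4 libraries, at 33.8% to 63.1% of the level at 0 over the libraries summed. The cells at the edge of the gate thus carried less of these genes than the bulk of the microglial class, and they were 59 cells of 5516.

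Fcrls did not keep falling. It went from 944 CPM (934 to 954) at 0 border gene UMIs to 354 CPM (312 to 399, 90 cells) at 10 to 19 and then to 752 CPM (706 to 800, 167 cells) at 20 or more, and was higher in the last range than in the one before in 4 of 4 libraries. Csf1r showed the same return, from 49.0% of its level at 0 to 69.2%, also in 4 of 4 libraries. P2ry12, Siglech and P2ry13 were higher in the last range in 4 of 4 libraries too, by less: P2ry12 went from 22.9% to 30.1%. Olfml3 did not, and was lower at 20 or more than at 10 to 19 in 4 of 4 libraries, at 22.6% against 32.4%. These ranges use raw UMIs, so deeper cells reach higher ranges.

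**Figure D1:**
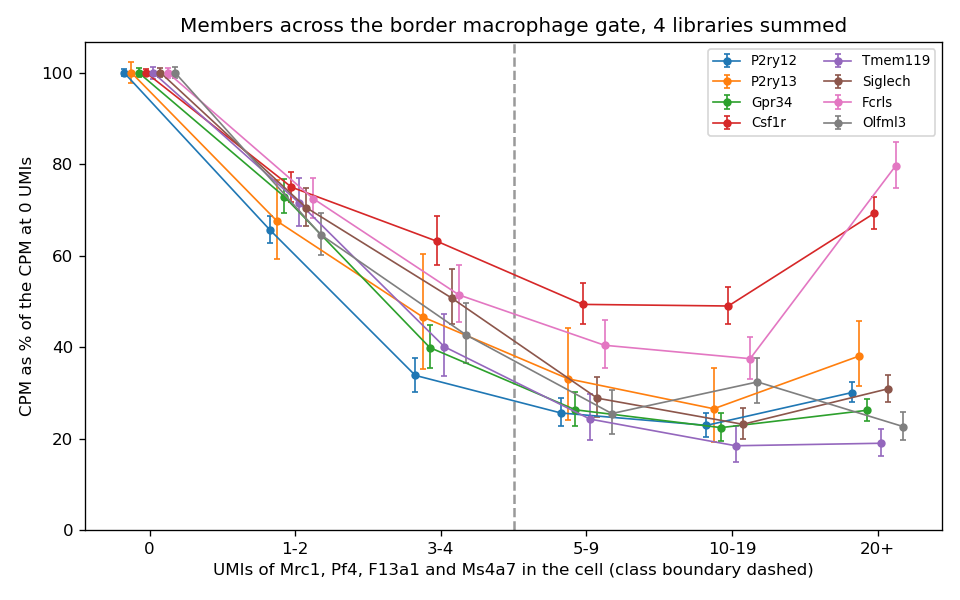
Level of each gene (CPM as a percentage of its CPM in cells with 0 border gene UMIs; bars are 95% Poisson intervals) in C1q-positive cells grouped by UMIs of Mrc1, Pf4, F13a1 and Ms4a7, with the 4 libraries summed. All 8 genes decline to the gate boundary, and Fcrls and Csf1r return to 79.7% and 69.2% at 20 or more UMIs.

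In microglia the level of each gene was close to constant across the 4 libraries. The question of the first comparison was whether stroke, with isotype antibody given for 10 weeks, left these genes at the sham level. P2ry12 was at 1739 CPM in sham, 1654 with stroke and isotype, 1827 with anti-VCAM1 and 1786 with anti-VLA4. P2ry13 was at 212, 218, 224 and 224 CPM in the same order. The highest value of P2ry12 was 1.10 times the lowest and that of P2ry13 1.06 times.

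Gpr34, a receptor for lysophosphatidylserine, was at 1270.2, 1200.4, 1330.3 and 1337 CPM. Csf1r was at 1611, 1539.95, 1622 and 1654 CPM. For both genes the stroke isotype library was the lowest. Tmem119 was at 611, 581, 659 and 669 CPM, again lowest with stroke and isotype, and its highest value was 1.15 times its lowest, the widest span of the 8.

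Siglech, a sialic acid-binding lectin, was at 1037, 1011, 1029.6 and 979 CPM, and was the only one of the 8 with its lowest value under anti-VLA4. Fcrls was at 878, 890.2, 945 and 958 CPM. Olfml3, which encodes a secreted glycoprotein, was at 676, 670.1, 709.6 and 741 CPM. All of the 8 but Siglech were higher in both of the blocking antibody libraries than in both isotype libraries.

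**Figure D2:**
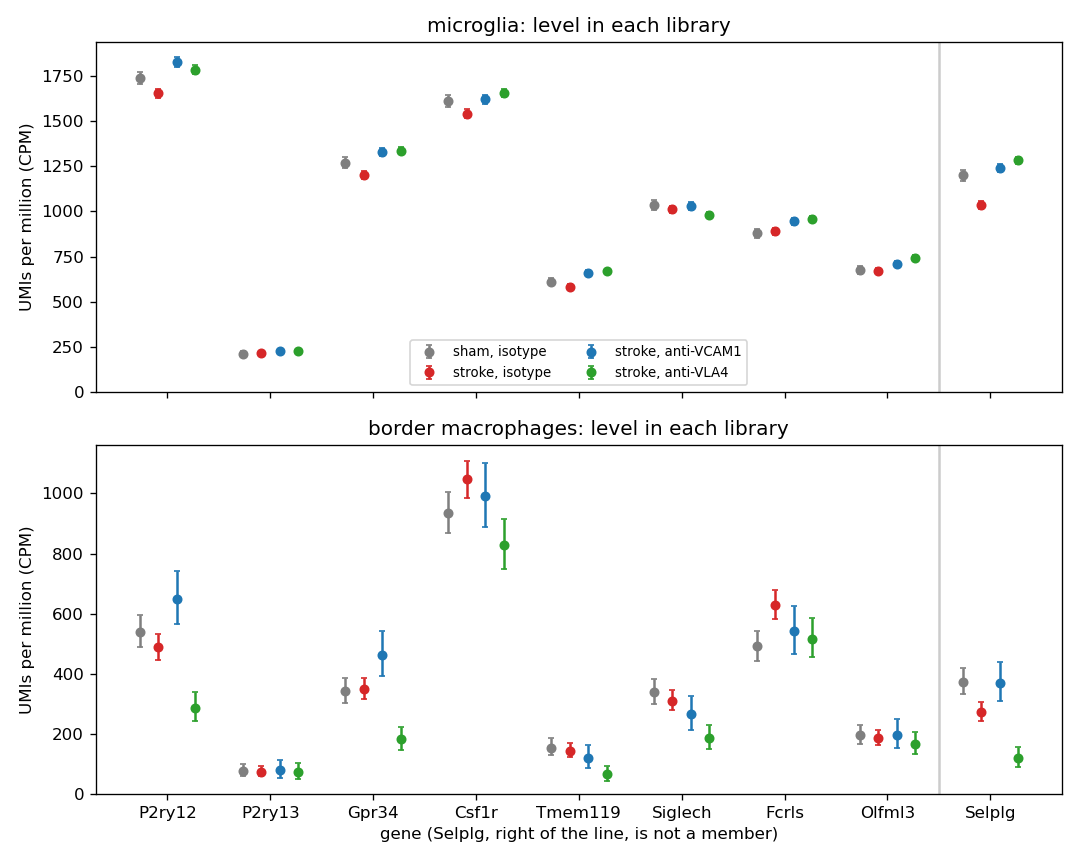
Level of each gene in CPM (bars are 95% Poisson intervals) in microglia and border macrophages of each of the 4 libraries, with Selplg to the right of the line. In microglia the highest library is 1.06 to 1.15 times the lowest for the 8 genes. In border macrophages the anti-VLA4 library is the lowest for P2ry12, Gpr34, Tmem119 and Siglech. Without shared barcodes sham Siglech, at 149 CPM, is lower, and sham P2ry12, Gpr34 and Tmem119 fall to 301, 220 and 74.7 CPM.

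Shares of cells gave the same picture once depth was made equal. After each microglial cell was thinned to 1000 UMIs, which left out 1 to 8 cells per library, P2ry12 was seen in 73.0% to 78.5% of microglia, Csf1r in 74.8% to 79.9%, Gpr34 in 61.9% to 67.7% and Siglech in 59.1% to 60.0%. Fcrls was seen in 51.5% to 57.0%, Olfml3 in 42.3% to 47.7%, Tmem119 in 39.1% to 47.1% and P2ry13 in 18.0% to 21.8%. Before thinning, P2ry12 was seen in 94.1% to 97.6% of microglia. In thinned endothelial cells, whose median depth was 3940 to 4591 UMIs, P2ry12 was seen in 0.191% to 1.41% of cells, with 9 to 30 shallower cells left out, and before thinning in 2.82% to 4.58%.

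Among microglia of 1 library the spread between cells differed by gene. In thinned cells the variance over the mean, which is 1 for counting alone, was 1.49 to 1.56 for Gpr34, 1.30 to 1.44 for P2ry12 and 1.07 to 1.18 for Csf1r. The range of Gpr34 lay above those of the other 7 genes in every library.

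Stroke against sham gave no member past 1.2-fold in microglia. Of the 8 genes, 0 were at least 1.2-fold lower and 0 at least 1.2-fold higher with stroke and isotype, where 11.3% and 6.28% of the 7643 genes with at least 200 UMIs were. The log2 ratios ran from -0.08 (Gpr34, interval -0.12 to -0.04) to 0.04 (P2ry13, interval -0.06 to 0.15). Their median was -0.05, the same as that of all genes tested. The intervals of P2ry12, Tmem119, Gpr34 and Csf1r lay below 0, with ratios of -0.07, -0.07, -0.08 and -0.06. Only that of P2ry12 kept its sign in all 19 other settings, and Tmem119, Gpr34 and Csf1r each changed sign in 1. In the same cells Apoe, a disease-associated gene, was higher by 1.92 and Spp1 by 5.57 on the log2 scale (9 UMIs in sham, 758 with stroke), and 5 of the 6 disease-associated genes tested were past 1.2-fold.

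The other comparisons asked whether blocking VCAM1 or VLA4 after stroke changed these levels, and both used the stroke isotype library as their reference. With anti-VCAM1, 0 of 8 were past 1.2-fold in microglia, where 4.8% of 8389 genes were lower and 8.49% higher. Ratios ran from 0.03 (Siglech, interval -0.01 to 0.07) to 0.18 (Tmem119, interval 0.13 to 0.24), with a median of 0.08 against 0.04 for all genes. With anti-VLA4, 0 of 8 were past 1.2-fold, where 6.66% of 8773 genes were lower and 11.6% higher. Ratios ran from -0.05 (Siglech, interval -0.09 to -0.01) to 0.20 (Tmem119, interval 0.15 to 0.25), with a median of 0.11 against 0.07. Tmem119 had the highest ratio and Siglech the lowest of the 8 under each antibody. Of the intervals, 6 lay above 0 in each of these comparisons, those of P2ry12, Tmem119, Gpr34, Olfml3, Fcrls and Csf1r, and these 6 kept their sign in all 19 other settings. The background itself depended on scaling: of the genes past 1.2-fold in microglia, the share that was lower was 64.3% for stroke, 36.1% for VCAM1 and 36.5% for VLA4, and with TMM scaling 44.0%, 47.7% and 51.5%.

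**Figure D3:**
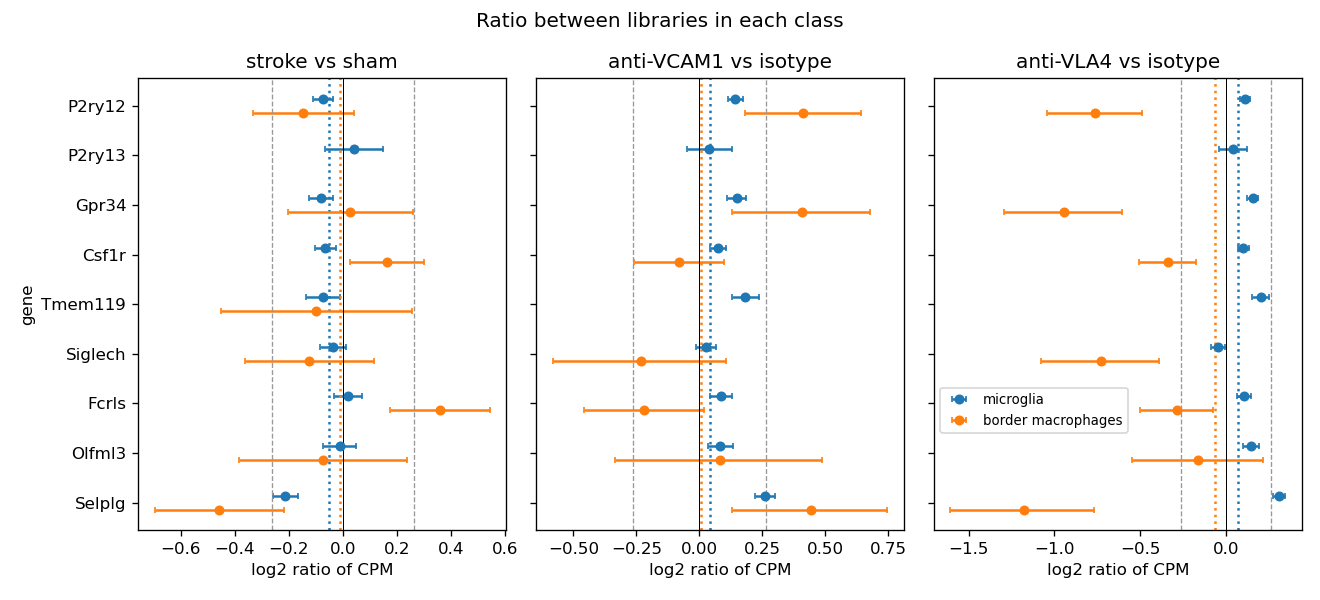
Log2 ratio of CPM between 2 libraries (x axis; bars are 95% counting intervals) for each gene in microglia and in border macrophages, with 1.2-fold as grey dashed lines and the median of all genes tested as dotted lines; genes under 200 UMIs are not drawn. The microglial ratios of the 8 genes stay between -0.08 and 0.20, while in border macrophages 5 genes lie below -0.26 with anti-VLA4.

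Selplg moved more than any of the 8 in microglia. It was at 1199.85 CPM in sham, 1035 with stroke and isotype, 1239 with anti-VCAM1 and 1283 with anti-VLA4, so that the stroke isotype library lay below the other 3. The log2 ratio was -0.21 (interval -0.26 to -0.17) for stroke against sham, 0.26 (0.22 to 0.30) when VCAM1 was blocked and 0.31 (0.27 to 0.35) when VLA4 was. Only the last was past 1.2-fold, and it ran from 0.24 to 0.39 over 19 other settings, on both sides of 0.26, which is 1.2-fold. Unlike the 8 genes, Selplg was also found in T cells, at 28.9% to 41.8% of its microglial level.

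The 25 other homeostatic microglia genes listed gave a similar count. In microglia 1 of 25 was at least 1.2-fold lower with stroke and 0 higher, where 11.3% and 6.28% of all genes tested were. Under anti-VCAM1 0 were past 1.2-fold, where 4.8% of genes were lower and 8.49% higher. Under anti-VLA4 0 were lower and 1 higher, where 6.66% and 11.6% of genes were. For stroke the lowest ratios were those of Rhob (-0.33) and Slc2a5 (-0.20) and the highest those of Ctss (0.17) and Cst3 (0.08). With anti-VCAM1 they were Cx3cr1 (-0.02), Itgam (-0.01), Slc2a5 (0.24) and Ltc4s (0.23). With anti-VLA4 they were Rhob (-0.20), Cx3cr1 (-0.07), Slc2a5 (0.32) and P2ry6 (0.24). Slc2a5, a fructose transporter, was thus among the lowest after stroke and the highest under each antibody. Rhob, a small GTPase induced by many stimuli, was lowest in the anti-VLA4 library, as were the dissociation genes.

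The partners of these receptors were read in the same cells. Csf1, a ligand of Csf1r, was in microglia at 96.0 CPM in sham, 205 with stroke and isotype, 149 with anti-VCAM1 and 139 with anti-VLA4. The stroke isotype library had the least Csf1r and the most Csf1, but sham, with the least Csf1, had less Csf1r than both blocking antibody libraries. The log2 ratio of Csf1 was 1.09 (interval 0.95 to 1.24) for stroke against sham, -0.46 (-0.56 to -0.36) when VCAM1 was blocked and -0.56 (-0.66 to -0.47) when VLA4 was. Il34, the other ligand, which neurons make, was at 0 to 4.78 CPM in endothelial cells and 0 to 0.819 CPM in microglia. Entpd1, the enzyme CD39 that hydrolyses ATP and ADP, was at 1069 to 1139.8 CPM in microglia. Nt5e, which completes the step to adenosine, was at 0.237 to 0.945 CPM.

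Tyrobp, the adaptor through which Siglech signals, was at 1696 CPM in sham and 1980.1 to 2207 in the other libraries, and was highest in microglia, while Hcst was highest in T cells at 832 to 976 CPM. Abhd12, a hydrolase of lysophosphatidylserine, the lipid that activates Gpr34, was at 685 to 743 CPM in microglia, and Pla1a, which makes that lipid, at 1.81 to 3.28 CPM. Of the other nucleotide receptors, P2rx7 was at 141 to 153 CPM in microglia and 499 to 1047 in border macrophages, P2rx4 at 85.3 to 98.7 and 150.04 to 186, and P2ry6 at 162 to 192 and 159 to 216. P2ry14 was at 1.03 to 1.89 CPM in microglia and 6.24 to 54.3 CPM in dendritic cells. The selectins Selp and Sele, partners of PSGL-1, had 0 UMIs in microglia of all libraries. The ATP-gated P2rx7 was thus higher in border macrophages in all 4 libraries, opposite to the ADP receptors P2ry12 and P2ry13.

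Within each library, microglia with at least 3 UMIs of the disease-associated genes Cst7, Spp1, Lpl and Itgax were set against microglia with 0. This is a range of a score and not a cell type, and the fifth gene of the list, Clec7a, was not used here. There were 8 such cells in sham (1.25% of microglia), 47 with stroke and isotype (3.65%), 51 with anti-VCAM1 (3.31%) and 73 with anti-VLA4 (3.56%). After thinning to 1000 UMIs, 0.784%, 3.83%, 3.18% and 3.48% of microglia held at least 1 such UMI. The sham share lay below the 3 stroke shares, whose intervals overlapped.

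P2ry12 in these cells was at 865, 768, 834 and 846 CPM, against 1798, 1747, 1929.8 and 1868 CPM in cells with 0. Its log2 ratio was -1.06, -1.19, -1.21 and -1.14, and the 4 intervals overlapped one another. Tmem119 was at 189, 247, 299.65 and 308 CPM against 643, 611, 687 and 693, with ratios of -1.77, -1.31, -1.20 and -1.17. P2ry13 had ratios of -1.22 to -0.78 and Gpr34 of -1.10 to -0.75. Olfml3 (-0.92 to -0.49), Siglech (-0.99 to -0.28) and Csf1r (-0.62 to -0.33) were lower by less, and Fcrls ran from -0.84 to -0.12.

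Of the 8 genes, 7 were at least 1.2-fold lower in 4 of 4 libraries, all but Fcrls, and 0 were higher, where 22.1% of 4183 genes were lower and 7.51% higher. The background was high because the median of all genes in these cells was itself -0.28 to -0.21. Relative to that median, P2ry12, P2ry13, Gpr34 and Tmem119 were at least 1.2-fold lower in all 4 libraries, where 8.77% of genes were. Of the 25 other homeostatic genes, 18 were at least 1.2-fold lower in every library. The cells with 3 or more UMIs were deeper, with medians of 8816 to 11250 UMIs against 5689 to 7884. With the cut made on UMIs per 10000 the count was again 7, with Fcrls among them and Siglech not.

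Markers of other cells moved with this split in part. The 6 border macrophage markers summed to 10.5 to 72.1 CPM in the cells with disease-associated UMIs and 6.93 to 15.7 CPM in those without, and the 4 dendritic markers to 16.2 to 99.1 against 1.97 to 8.15 CPM. Pericyte markers were at 67.5 against 1.97 CPM with anti-VLA4 and 79.4 against 21.6 CPM with anti-VCAM1. Endothelial markers were at 309 against 89.8 CPM with anti-VCAM1 and 155 against 85.2 CPM with stroke and isotype, but lower in the cells with disease-associated UMIs in the other libraries. The part of pericyte and endothelial RNA in the split was not tested. Without any UMI of the 4 border genes, 6 of 8 members were at least 1.2-fold lower in every library, where 18.9% of genes were, and without any dendritic UMI 5 of 8, where 21.6% were. P2ry12, Tmem119, Gpr34, Olfml3 and P2ry13 were in each of these counts, which rested in sham on 5 and 6 cells with disease-associated UMIs. Border and dendritic UMIs were left out separately and never together, and their joint part in the split was not tested.

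Microglia with at least 20 UMIs of the inflammatory genes Il1b, Tnf, Ccl3 and Ccl4 were set against those with fewer than 5. They were 159, 377, 343 and 285 cells, or 24.9%, 29.3%, 22.2% and 13.9% of microglia. All 8 genes were lower in 4 of 4 libraries, by log2 ratios of -0.36 to -0.06, and 0 were 1.2-fold lower in every library, where 7.53% of 3760 genes were lower and 5.9% higher. The median of all genes was -0.17 to -0.10. Relative to it P2ry12, Tmem119, Siglech, Csf1r and Fcrls were still lower in 4 of 4 libraries, while Gpr34 and Olfml3 were lower in 2 and P2ry13 in 2. Border macrophage markers were higher in the inflammatory cells in every library, at 33.9 against 8.98 CPM in sham and 25.4 against 12.6 CPM with stroke and isotype. Dendritic markers were at 27.7 against 10.2, 18.8 against 2.26, 4.45 against 2.51 and 1.74 against 4.16 CPM in the order of libraries above. S100a8 and S100a9 were at 6.78 against 5.08, 9.56 against 9.55, 26.0 against 1.25 and 0 against 0.122 CPM, and their part was not tested. Without any UMI of the 4 border genes, Gpr34 and P2ry13 were no longer lower in sham, with ratios of 0.01 and 0.02. The 12 dissociation genes were higher in the inflammatory cells in every library, at 11623 to 16602 CPM against 6378 to 12776, and their part in these ratios was not tested. The ratios of P2ry12, Tmem119 and Gpr34 were lower in the disease-associated split than in this one in every library, with intervals that did not overlap.

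**Figure D4:**
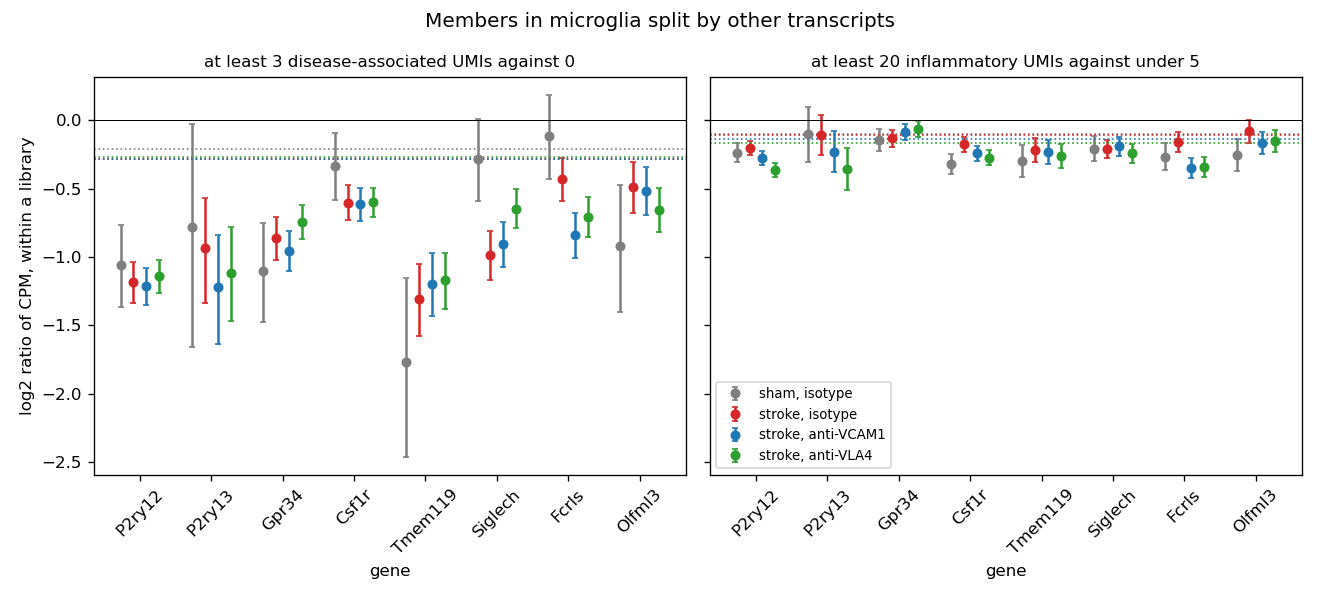
Log2 ratio of CPM within each library (y axis; bars are 95% counting intervals) between microglia with and without disease-associated UMIs (left) and with many and few inflammatory UMIs (right); dotted lines are the median of all genes tested in each library. P2ry12 and Tmem119 lie at or below -1.06 in all 4 libraries on the left, and all 8 genes lie between -0.36 and -0.06 on the right.

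Across cell classes, genes whose pattern was among the most like the mean of the 8 were Cx3cr1, the fractalkine receptor, C1qb, Gm15523 and Csf3r, with Pearson r of 0.988 to 0.990 in log2(CPM + 1) over 19 sums of a class in a library. C1qb is one of the gating genes, the sums of 1 library share its depth and free RNA, and the coefficients are a description without a test.

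In border macrophages the same comparisons rested on few cells. The 10 cells with the most UMIs of a gene held 47.1% to 83.0% of the P2ry12 UMIs of a library and 26.3% to 51.0% of the Csf1r UMIs. P2ry12 was at 540.01 CPM in sham, 488 with stroke and isotype, 649 with anti-VCAM1 and 288 with anti-VLA4. Gpr34 was at 343, 349, 463 and 182 CPM and Siglech at 339, 311, 265 and 188 CPM. The anti-VLA4 library was the lowest for all 3, and its intervals did not overlap those of the stroke isotype library. Without shared barcodes sham P2ry12 was at 301 CPM and sham Gpr34 at 220 CPM, against 288 and 182 CPM with anti-VLA4. Sham Siglech was then at 149 CPM, below the anti-VLA4 library. Tmem119 was at 155, 144, 119 and 65.3 CPM from 32 to 156 UMIs, again lowest with anti-VLA4. It had under 200 UMIs over the 2 libraries in both antibody comparisons. Without shared barcodes sham Tmem119 was at 74.7 CPM from 36 UMIs. P2ry13, with 27 to 81 UMIs, was at 73.5 to 78.6 CPM and under that minimum in every comparison.

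Stroke against sham in border macrophages depended on the shared barcodes. With all cells, 1 of 7 genes tested, Fcrls (0.36, interval 0.17 to 0.54), was at least 1.2-fold higher and 0 were lower, where 13.5% and 16.9% of 1682 genes were. Without shared barcodes, 6 of 6 tested were higher, where 22.8% of 1350 genes were higher and 18.4% lower. P2ry12 in sham then fell from 540.01 to 301 CPM and in stroke changed from 488 to 475, and its log2 ratio went from -0.15 to 0.66 (interval 0.39 to 0.94). Siglech went from -0.12 to 1.02 (interval 0.65 to 1.41), with sham at 149 CPM in place of 339. The 10 shared-barcode cells of sham held P2ry12 at 926 CPM and the 4 border genes at 2028 CPM, against 4855 CPM of the border genes in the other 69 cells. They had a median of 27049 UMIs against 6595. Without shared barcodes Olfml3 also went from -0.07 to 0.66, and Tmem119, then under 200 UMIs, from -0.10 to 0.94. The direction for P2ry12, Siglech, Olfml3 and Tmem119 thus turned on the shared barcodes. Gpr34 went from 0.03 to 0.62, Csf1r from 0.16 to 0.41 and Fcrls from 0.36 to 0.30, above 0 with and without them.

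With anti-VCAM1, P2ry12 (0.41, interval 0.18 to 0.64) and Gpr34 (0.41, interval 0.13 to 0.68) were at least 1.2-fold higher among 6 genes tested and 0 were lower, where 17.9% and 14.5% of 1238 genes were. Endothelial markers were at 230 CPM with anti-VCAM1 and 25.0 with isotype, and S100a8 and S100a9 at 2.91 and 1056 CPM, and the part of the latter was not tested. Without the 10 deepest cells of each library 0 of 5 tested were past 1.2-fold. In that setting 22.2% of 801 genes were lower and 20.97% higher. With TMM scaling the background turned, with 73.8% of called genes lower in place of 44.8%. The count of members therefore also rested on few cells, of 46 in the anti-VCAM1 library.

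With anti-VLA4, 5 of 6 genes tested were at least 1.2-fold lower and 0 were higher, where 29.1% of 1338 genes were lower and 15.2% higher. The ratios were -0.94 for Gpr34 (interval -1.29 to -0.61), -0.76 for P2ry12 (-1.04 to -0.49), -0.73 for Siglech (-1.08 to -0.39), -0.34 for Csf1r (-0.50 to -0.17) and -0.29 for Fcrls (-0.50 to -0.08). Their median with Olfml3 (-0.16) was -0.53, against -0.06 for all genes tested, and the median of the 16 other homeostatic genes tested was -0.53, with 9 of 16 at least 1.2-fold lower. With all genes centred on their median, 55.6% of called genes were lower in place of 65.8%. Without the 10 deepest cells of each library, P2ry12, Gpr34, Siglech and Olfml3 were at least 1.2-fold lower, with P2ry12 at -0.33 and Siglech at -0.38. In that setting 18% of 950 genes were lower and 15.6% higher. Endothelial markers in these cells were at 1147 CPM with anti-VLA4 and 25.0 with stroke and isotype, and pericyte markers at 255 and 0.926 CPM. Without cells that held 5 or more endothelial UMIs, Gpr34, P2ry12 and Siglech were still at least 1.2-fold lower, where 25.6% of genes were, and Csf1r and Fcrls were not. The median of the members was then -0.35.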

How the data were processed

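Single-cell 3′ RNA libraries (Chromium v3.1, per the labels' protocols) were analysed from the filtered matrices as deposited, whose values are raw UMI counts per gene and cell. Per the file headers the authors made them with Cell Ranger 7.0.1. The submitters' processing notes list Cell Ranger 6.0.0, Seurat 4.3.0.1 and the builds mm10 and GRCh38.

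Cells were kept with at least 500 UMIs, 200 genes and at most 10% mitochondrial UMIs, and doublets marked by Scrublet (scanpy 1.11.5, expected rate 0.05) were left out, 9 to 124 per library. For each class in each library the UMIs of a gene were added up and divided by those of all genes (CPM). Ratios have no pseudocount and conditional binomial 95% intervals. Levels have exact Poisson intervals, and shares of cells exact Clopper-Pearson intervals. PCR duplicates are removed by UMIs, and intervals cover counting error only. Genes with at least 200 UMIs over both libraries were tested against a fold of 1.2, with no p-value. The interval code was tested on simulated counts. TMM factors came from edgeR 4.0.16 (R 4.3.3), used for scaling only.

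The text names the 8 genes, the lowest and highest pairs of other homeostatic genes, the receptors' partners and the 5 most alike genes, and some genes these rules chose are not reported here. Members and lists were chosen with earlier results of these data known. Cells with 10 or more summed UMIs of Cldn5, Flt1 and Ly6c1 were called endothelial and with 3 or more of Cd3d, Cd3e and Cd3g T cells, both with fewer than 10 C1q UMIs. Python 3.11.15 with numpy 2.4.6, scipy 1.17.1, pandas 2.3.3 and matplotlib 3.10.9 was used. Other scalings, gates, filters and folds were tried. Clec7a and Selplg2 were not used here.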

Additional observations from a re-analysis of the deposited data

Results flagged for a closer look

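For 6 pairs of a gene and a comparison, the log2 ratios in microglia and border macrophages had opposite signs within the same pair of libraries and both counting intervals excluded 0. Other pairs with opposite signs had an interval that included 0 or under 200 UMIs in border macrophages. Each group is 1 library, so the difference could not be tested against replicates. For anti-VLA4 against isotype, the log2 ratio in border macrophages minus that in microglia was -0.87219 for P2ry12, -1.09815 for Gpr34, -0.392672 for Fcrls, -0.439532 for Csf1r and -1.48683 for Selplg. All 5 were higher in microglia and lower in border macrophages of the anti-VLA4 library. For stroke against sham, Csf1r gave 0.226933, lower in microglia and higher in border macrophages, and 0.48 without shared barcodes. Endothelial markers in border macrophages were at 1147 CPM with anti-VLA4 against 25.0 CPM with isotype. Without cells holding 5 or more endothelial UMIs, the differences for anti-VLA4 were -0.67 for P2ry12, -0.98 for Gpr34, -0.26 for Fcrls, -0.28 for Csf1r and -1.30 for Selplg, and Fcrls and Csf1r were no longer 1.2-fold lower in border macrophages.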

How the results depend on the processing

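No paired analysis was possible because each group is 1 library. Counting depth limited border macrophages, with 46 to 130 cells per library, and P2ry13 had too few UMIs there to be tested. In microglia the count of members past 1.2-fold was 0 in each comparison under all 19 alternatives. In all, 106 counts stayed within 1.5 times and 17 moved, and of the ratios of single genes 761 moved by less than their interval, 140 by more and 8 reversed. For none of these changes was the cause tested, other than that thinning to 1000 UMIs left 0 to 1 members with enough UMIs. The settings that left out shared barcodes or the 10 deepest cells, the border cut of 20 and those of the state splits were chosen after seeing the data.

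In border macrophages, stroke against sham gave 1 member as reported, 5 by the mean of cells, 0 thinned, 0 at a fold of 1.5, 2 with a border cut of 20, 6 without the 10 deepest cells and 6 without shared barcodes. In sham the 10 deepest border macrophages were the 10 cells with shared barcodes. These settings therefore left out the same sham cells and are not separate checks of the sham level. Of all genes 13.5% were higher as reported, 18.1% by the mean of cells, 15.6% with the border cut, 18.0% without the 10 deepest cells and 22.8% without shared barcodes. The Selplg ratio reversed to 0.1909 by the mean of cells, 0.6679 without the 10 deepest cells and 0.8243 without shared barcodes. Anti-VCAM1 gave 2 members as reported, 4 with TMM, 4 with a C1q cut of 20, 0 thinned, 0 at a fold of 1.5 and 0 without the 10 deepest cells. Of all genes, 14.5% were lower and 17.9% higher as reported, and 26.9% and 9.53% with TMM. The shares were 16.4% and 15.4% with the C1q cut and 2.91% and 2.42% at a fold of 1.5. Without the 10 deepest cells they were 22.2% and 20.97%. P2ry12 reversed to -0.1713 thinned and -0.0316 with a border cut of 20, and Selplg to -0.1449 with that cut and -0.172 without the 10 deepest cells. Anti-VLA4 gave 5 members as reported, 3 by the mean of cells, 3 without endothelial UMIs, 0 thinned and 3 at a fold of 1.5. Of all genes 29.1% were lower as reported, 30.2% by the mean of cells, 25.6% without endothelial UMIs, 10.3% thinned and 10.5% at a fold of 1.5. Siglech reversed to 0.0007 thinned. TMM moved the median of all genes to -0.11 for anti-VCAM1 and thinning moved it by 0.14 for anti-VLA4. In the disease-associated split the 7 members became 4 with median centring, where 8.77% of genes were lower, and 4 at a fold of 1.5, where 6.81% were.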
